A study of Mus musculus with 10 samples.

Results

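Whole cumulus-oocyte complexes were compared with mural granulosa cells, both from mice given gonadotropin before collection. The comparison used 4 of the 10 libraries of the series, 2 of complexes and 2 of mural cells. The complexes came from mice aged 3 weeks primed with PMSG, and their 2 libraries are 1 of the BDF1 strain and 1 of DBA/2, treated here as 1 group. The mural granulosa cells came from C57BL/6 mice aged 2 months, and the labels' protocol names eCG-primed mice as their source. PMSG and eCG are names of the same hormone preparation, which acts mainly like follicle-stimulating hormone. The groups therefore differ in compartment, in the presence of the oocyte, in strain and in age, and these cannot be told apart. The labels do not say whether libraries of a group came from separate animals, so the p-values measure the spread between these libraries, which for the complexes includes strain. A culture medium containing milrinone, which inhibits phosphodiesterase, is given in the growth protocol of every sample, without saying which cells were kept in it. Cumulus cells of 2-month C57BL/6 mice (3 libraries), whose priming is not stated in the labels, are set beside the comparison without a test.

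In an antral follicle the granulosa cells lie in separate compartments. Cumulus cells surround the oocyte and are joined to it by gap junctions, while mural cells line the follicle wall. The oocyte secretes GDF9 and BMP15, which act on the cumulus cells, support their glycolysis and amino acid uptake and hold back their LH receptor. Under follicle-stimulating hormone the mural cells gain the LH receptor and the enzymes of steroid synthesis. Mural cells also secrete C-type natriuretic peptide, whose receptor on cumulus cells makes the cyclic GMP that keeps the oocyte in meiotic arrest. A complex holds oocyte and cumulus RNA together, so a level in it is a mixture of both. In such bulk samples fewer cells of a type and less RNA per cell cannot be told apart.

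Transcript levels were deposited as FPKM, fragments normalised to transcript length and to the total mapped in that library. Since sequencing depth is unknown, how precise the low values are is unknown too. Differences are given as complexes minus mural cells on log2(FPKM + 1), a scale that understates the change of low genes, with the standard error (SE) from limma and a Benjamini-Hochberg adjusted p. Library values are given in the order BDF1 and DBA/2 for the complexes, and replicate 1 and replicate 2 for the mural cells. Of 12916 genes with a mean of at least 1 FPKM over the 4 libraries, 4962 (38.4%) passed an adjusted p of 0.05. Of the genes tested, 27.5% were higher in complexes (3552 genes) and 10.9% were lower (1410 genes). Differences of 2-fold or more were found for 2240 higher and 959 lower genes, and of 16-fold or more for 159 and 51. Before adjustment 6405 genes had a p under 0.05. Both complexes lay beyond both mural libraries in 9603 genes (74.3%).

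The median difference of all tested genes was 0.22, and it lay between -0.06 and -0.02 after rescaling the libraries to 1 summed FPKM, centring them on their medians, quantile normalization, or rescaling without Mir, Snor and oocyte list genes. Genes higher in complexes made up 71.6% of those that passed on the deposited scale, and 53.7%, 49.9%, 51.1% and 49.6% on these other scales. A list's median is therefore best read against 0.22. Counts of its members are best read beside the 27.5% higher and 10.9% lower of all genes tested. The complexes differed from each other by at least 2-fold in 846 genes, the mural libraries in 489, and the group means in 3667. Leaving out the BDF1 or the DBA/2 complexes left 3612 and 3655 genes past the threshold. Without mural replicate 1 the count was 757, and without mural replicate 2 it was 130. With the spread estimated over the other 9 libraries of the series, an alternative chosen after the data were seen, the counts without the same libraries were 3713, 3716, 3336 and 2556. Counts of list members without BDF1, DBA/2, mural replicate 1 and mural replicate 2, always in this order, come from the fit of the 3 libraries left. In it, the group with 1 library is assumed to vary like the other. Counts in square brackets after them come from the fit with the spread over the other 9 libraries.

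The labels were checked against marker genes. All 3 zona pellucida genes of the oocyte were near or above 100 FPKM in both complexes, while granulosa genes such as Foxl2, Fshr and Inha were present in all 4 libraries. Both mural libraries held oocyte transcripts. Over 21 genes of the secreted, zona and maternal effect lists, trimmed of 6 members after their levels were seen, the median level was 4.93% of that in complexes in mural replicate 1 and 0.680% in mural replicate 2. Markers listed for other cell types of the ovary summed to more in the mural libraries, and whether such cells were present was not tested. The 16 theca and stroma markers summed to 43.1 and 35.6 FPKM in complexes and to 319.8 and 450.5 FPKM in mural libraries. Aldh1a1 and Cyp17a1 carry most of the mural sums, and the other 14 markers summed to 29.4 and 22.2 against 63.6 and 133 FPKM. The 11 endothelial markers summed to 8.38 and 9.15 against 30.3 and 81.4 FPKM, and the 15 immune markers to 16.1 and 17.8 against 36.7 and 74.9 FPKM. Surface epithelium markers (11 genes) summed to 27.4 and 28.4 against 60.2 and 39.8 FPKM. The 7 erythroid markers summed to 16.6 and 9.30 against 124 and 48.3 FPKM, and without the globin Hba-a1 to 14.5 and 9.30 against 62.8 and 2.04 FPKM, where the groups overlapped. In the plot of summed markers the 2 groups do not overlap for any of the 7 lists drawn, but single genes did not overlap in 74.3% of all genes tested. Cumulus markers, a list not drawn, overlapped in their sums, at 1047 and 438 FPKM in complexes and 526 and 359 FPKM in mural libraries. Eng and Emcn of endothelium, Cd52 of leukocytes and Krt19 of epithelium were listed at 0 in both complexes. Other members of these lists were higher in complexes. Cdh1 of the epithelium list stood at 8.54 and 10.6 against 0.875 and 0.584 FPKM. Endothelial Vwf, below the filter, stood at 0.556 and 0.567 against 0.0778 and 0.176 FPKM. Among the tested members, 9 of 13 theca and stroma, 6 of 10 endothelial, 3 of 11 immune and 7 of 10 surface epithelium markers were lower in complexes. Of all genes tested 10.9% were lower. Higher in complexes were 1 theca and stroma, 0 endothelial, 0 immune and 1 surface epithelium marker (Cdh1). With a filter at a mean of 5 FPKM, the surface epithelium median relative to all genes turned from -2.12 to 1.00. Of 4 tested erythroid markers 1 was lower (Hba-a1) and 1 higher, the heme synthesis enzyme Alas2, at 14.3 and 7.80 against 2.36 and 1.17 FPKM (adjusted p = 0.0139). A gene at 0 in 1 compartment passed the filter only through the other, so these counts describe the tested members. The part of these cells in the results below was not tested unless a value is given.

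**Figure D1:**
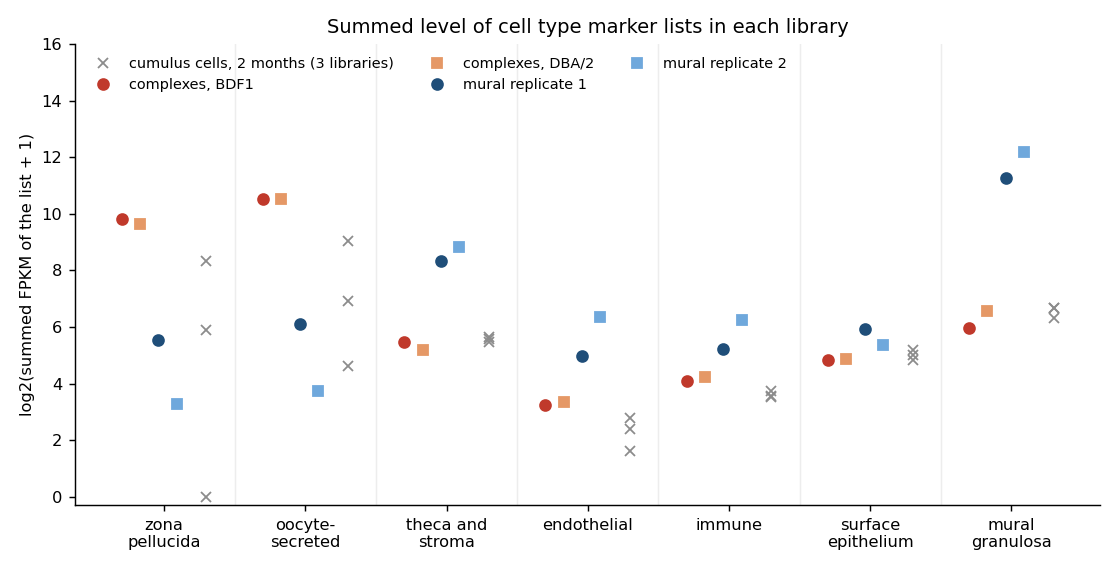
Summed FPKM of marker lists on a log2 axis, 1 symbol per library, for 2 complex, 2 mural and 3 cumulus libraries. The zona pellucida and oocyte-secreted lists stand highest in the complexes and lie apart between the mural libraries, while theca and stroma markers reach 319.8 and 450.5 FPKM in mural libraries and 35.6 to 43.1 FPKM in complexes.

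Factors that the oocyte secretes were higher in complexes. Of 8 listed genes 6 were tested, and 6 passed as higher, with a median difference of 4.95. Gdf9, which drives cumulus growth and expansion, stood at 951 and 894 FPKM in complexes and 30.6 and 3.07 FPKM in mural libraries (difference 6.35 ± 0.95 SE, adjusted p = 0.00875). Bmp15, its partner from the same family, stood at 163 and 167 against 11.9 and 1.12 FPKM (4.99 ± 0.84 SE, adjusted p = 0.0118). The complexes were nearly level in both genes, while mural replicate 1 held about 10 times as much as replicate 2. Fgf8, an oocyte factor that acts with BMP15 on cumulus glycolysis, was low at 5.73 and 16.2 against 0.505 and 0.235 FPKM (2.98 ± 0.49 SE, adjusted p = 0.0112), and the DBA/2 complexes held more of it than BDF1. Bmp6, a BMP ligand of the oocyte, stood at 35.1 and 39.1 against 8.35 and 6.68 FPKM and 26.5, 22.8 and 25.9 FPKM in the 2-month cumulus libraries (2.17 ± 0.18 SE, adjusted p = 0.00291). Without single libraries, 3, 3, 5 and 3 [2, 2, 5 and 2] of these genes passed.

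The zona pellucida is the glycoprotein coat that the oocyte builds around itself. Zp1, which cross-links its filaments, stood at 97.9 and 100.4 FPKM in complexes and 7.21 and 1.21 FPKM in mural libraries (4.56 ± 0.62 SE, adjusted p = 0.00702). Zp2, a filament subunit that takes part in sperm binding, stood at 316 and 262 against 17.96 and 3.31 FPKM (4.995 ± 0.70 SE, adjusted p = 0.00740). Zp3, the other filament subunit, stood at 480.3 and 438 against 20.02 and 4.24 FPKM (5.45 ± 0.65 SE, adjusted p = 0.00525). All 3 genes kept one order, with the complexes close together, mural replicate 1 next and mural replicate 2 lowest. In 2-month cumulus replicates 1, 2 and 3 Zp3 stood at 33.3, 0 and 158 FPKM, so this signal also differs between libraries labelled as cumulus cells. The number past the threshold was 1, 1, 3 and 2 without single libraries, and 0, 0, 0 and 0 in limma where the spread came from the other 9 libraries (1, 1, 3 and 0 at an unadjusted p under 0.05).

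The start regions of Zp3 and Bmp15 are shown because these oocyte genes stood higher together and FIGLA, an oocyte transcription factor of the basic helix-loop-helix type, acts through E-boxes (CANNTG, a palindrome that reads the same on both strands). The windows are the 250 bases before the RefSeq start in build GRCm38.p6, written along the gene's strand, with E-box matches in capitals. Zp3 lies on the plus strand at chr5:135979855-135980104, and Bmp15 on the minus strand at chrX:6320725-6320974.
Zp3: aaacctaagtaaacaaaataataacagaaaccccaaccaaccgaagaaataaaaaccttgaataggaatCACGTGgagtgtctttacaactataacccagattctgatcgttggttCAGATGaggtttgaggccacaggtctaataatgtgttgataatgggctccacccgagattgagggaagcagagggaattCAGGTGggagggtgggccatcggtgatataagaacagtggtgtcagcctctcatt
Bmp15: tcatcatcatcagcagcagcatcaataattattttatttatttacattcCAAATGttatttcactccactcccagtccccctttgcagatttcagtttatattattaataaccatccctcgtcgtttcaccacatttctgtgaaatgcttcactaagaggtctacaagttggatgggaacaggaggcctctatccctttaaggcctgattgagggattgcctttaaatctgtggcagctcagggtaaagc
The Zp3 window holds 3 matches, at positions -181, -134 and -55 counted from the start, and the Bmp15 window holds 1, at -201. An E-box is in 66.2% of all 32851 such windows, so a match describes the sequence only. Figla itself stood at 7.19 and 5.87 FPKM in complexes, at 0.302 FPKM in mural replicate 1 and was listed at 0 in mural replicate 2.

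Maternal effect genes, whose products are stored in the oocyte for the early embryo, were higher in complexes in 18 of 18 tested members, with a median difference of 5.19. Uchl1, a deubiquitinating enzyme abundant in oocytes, had the smallest p, at 671 and 663 FPKM in complexes and 45.1 and 40.3 FPKM in mural libraries (3.94 ± 0.12 SE, adjusted p = 7.63e-04). Tle6, part of the subcortical maternal complex, stood at 268 and 220.3 against 23.5 and 17.3 FPKM (3.53 ± 0.20 SE, adjusted p = 0.00230). Zbed3, of the same complex, stood at 707 and 821 against 62.5 and 30.6 FPKM (4.09 ± 0.35 SE, adjusted p = 0.00296). These 3 genes stood at 10.1 to 64.4 FPKM in 2-month cumulus replicate 2, the library in which the median oocyte gene is listed at 0. Nlrp2, by contrast, was listed at 0 in that library and stood at 28.9 and 28.8 FPKM in complexes and 0.942 and 0.0591 FPKM in mural libraries. Leaving out single libraries left 9, 9, 16 and 9 [7, 6, 14 and 2] members past the threshold.

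Genes of oocyte meiosis were higher in complexes in 17 of 19 tested members and lower in 1, with a median of 3.17. The lower one, named after its value was seen, was Rec8, a meiotic cohesin, at 0.863 FPKM in BDF1, 0 in DBA/2 and 3.17 and 2.65 FPKM in mural libraries. H1foo, the linker histone of oocytes, stood at 535 and 603 against 25.4 and 0.831 FPKM (6.35 ± 1.24 SE, adjusted p = 0.0172), with the mural libraries far apart. Plat, the tissue plasminogen activator kept as a dormant transcript in oocytes, stood at 149.5 and 159.8 against 7.19 and 5.20 FPKM (4.45 ± 0.18 SE, adjusted p = 0.00170). Of 10 tested oocyte transcription factors 9 were higher, among them Nobox at 52.9 and 53.03 against 2.48 and 0.336 FPKM and the homeobox gene Obox5 at 158 and 162 against 4.46 and 0.853 FPKM. The lower one was Gata4, which granulosa cells also express. Counts without single libraries were 12, 11, 11 and 5 [11, 9, 14 and 6] for meiosis and 8, 8, 5 and 3 [4, 4, 8 and 3] for transcription factors.

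The 12 genes that most exceeded their mural level in complexes, by a rule that leaves out predicted genes, were C87977, H1foo, Gdf9, Rfpl4, Bcl2l10, D6Ertd527e, AU022751, Obox1, Accsl, Oog3, Ccno and Khdc1b. Their differences ran from 5.86 to 6.43. C87977 stood at 181 and 251 FPKM in complexes, against 3.997 and 0.233 in mural and 6.36, 0.185 and 38.7 FPKM in 2-month cumulus libraries. Bcl2l10, a BCL2 family gene strongly expressed in oocytes, stood at 355 and 380.1 against 12.8 and 1.11 FPKM (6.10 ± 0.87 SE, adjusted p = 0.00780). In all 12 genes mural replicate 2 was lower than replicate 1, as for the oocyte genes above.

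**Figure D2:**
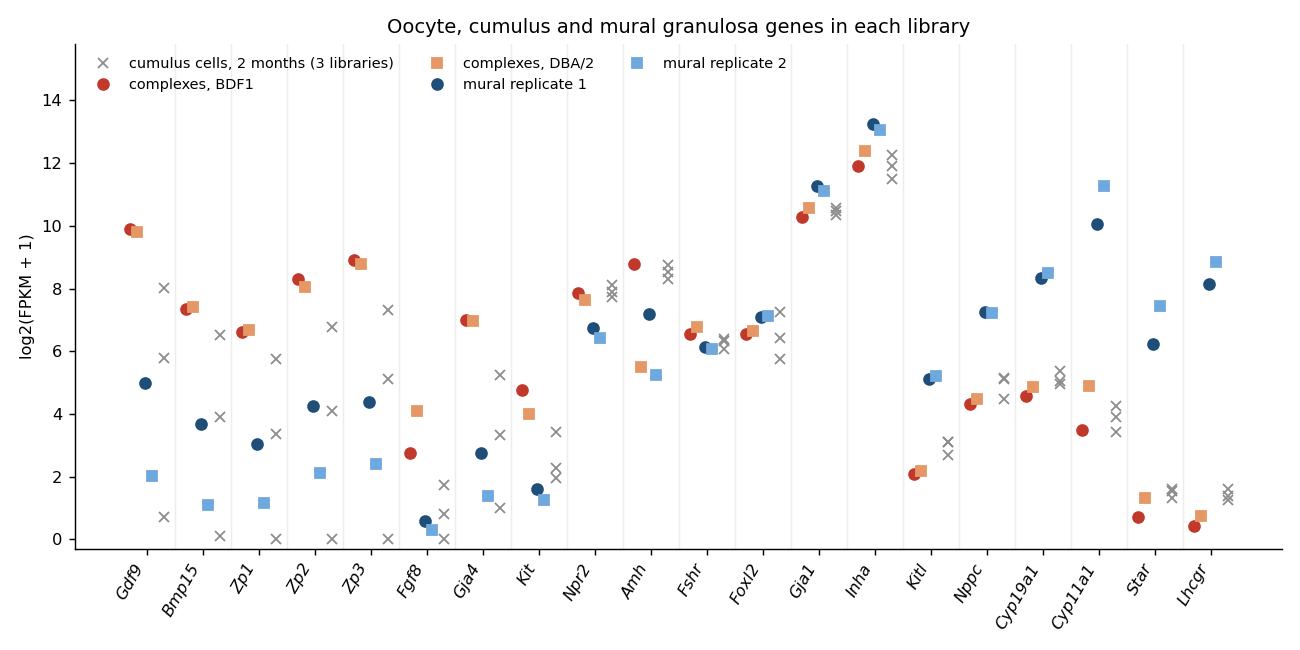
log2(FPKM + 1) of 20 genes in the 2 complex, 2 mural and 3 cumulus libraries (1 symbol each). Oocyte genes on the left stand highest in complexes and spread widely among the other libraries, Amh spreads within both groups, and Kitl to Lhcgr on the right stand highest in the mural libraries with no overlap.

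Mural granulosa markers were lower in complexes in 10 of 10 tested members, with a median difference of -5.32. Lhcgr, the LH receptor, had the largest difference of all genes the naming rule took, at 0.340 and 0.693 FPKM in complexes and 279.9 and 459 FPKM in mural libraries (-7.90 ± 0.29 SE, adjusted p = 0.00112). Sfrp4, a secreted Wnt antagonist, stood at 1.54 and 1.57 against 245 and 649 FPKM (-7.29 ± 0.47 SE, adjusted p = 0.00265). The complexes were level in Sfrp4 while mural replicate 2 held more than replicate 1. Comp, a matrix protein best known from cartilage, was even in both groups, at 1.80 and 2.57 against 134 and 116 FPKM (-5.32 ± 0.19 SE, adjusted p = 0.00112). Cd34, a surface sialomucin also found on endothelium, stood at 0.353 and 0.360 against 44.3 and 64.7 FPKM (-5.33 ± 0.24 SE, adjusted p = 0.00180). Endothelial Eng and Emcn stood at 4.62 and 12.5 and at 3.86 and 11.1 FPKM in mural libraries, like Cd34 higher in replicate 2. The part of endothelial cells in the Cd34 level was not tested. Prss35, a protease-like secreted protein, stood at 1.21 and 5.27 against 93.9 and 186 FPKM (-5.16 ± 0.59 SE, adjusted p = 0.00485). Without single libraries 10, 10, 8 and 2 [10, 10, 10 and 8] of the 10 markers passed. This list had been chosen with mural and cumulus levels of the same series known and is not independent evidence of its direction.

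Steroid synthesis genes were lower in complexes in 13 of 15 members, with a median of -3.17. The pathway begins with Star, which carries cholesterol into mitochondria, at 0.630 and 1.499 FPKM in complexes and 73.5 and 171 FPKM in mural libraries (-5.81 ± 0.46 SE, adjusted p = 0.00291). Cyp11a1, which cleaves the cholesterol side chain, stood at 10.2 and 28.5 against 1067 and 2459.9 FPKM (-6.48 ± 0.60 SE, adjusted p = 0.00342). In Star and Cyp11a1, DBA/2 complexes were above BDF1 and mural replicate 2 above replicate 1, yet the groups stayed far apart. Cyp17a1, which makes androgen and is known from theca, stood at 1.46 and 2.49 against 61.5 and 63.03 FPKM (-4.43 ± 0.22 SE, adjusted p = 0.00191), and is itself a member of the theca and stroma list. Cyp19a1, the aromatase of granulosa cells, was even within groups, at 22.8 and 28.2 against 324 and 358 FPKM (-3.69 ± 0.16 SE, adjusted p = 0.00170). Hsd3b6 stood at 1.62 and 2.42 against 34.8 and 47.4 FPKM. It shares reads with near-identical Hsd3b copies, so its level is uncertain. The members without a call were Por and Akr1c18, named after their values were seen, with adjusted p of 0.172 and 0.105. Without single libraries 8, 8, 6 and 0 [12, 12, 12 and 9] members passed.

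The start regions of Lhcgr and Cyp11a1 are shown because both genes stood far below their mural level in complexes, and AGGTCA is the core that nuclear receptors such as NR5A1 and NR5A2 of granulosa cells read. It was searched on both strands, and matches are in capitals. Windows are the 250 bases before the RefSeq start in GRCm38.p6, at chr17:88792015-88792264 on the minus strand for Lhcgr and at chr9:58014702-58014951 on the plus strand for 1 of 2 listed starts of Cyp11a1.
Lhcgr: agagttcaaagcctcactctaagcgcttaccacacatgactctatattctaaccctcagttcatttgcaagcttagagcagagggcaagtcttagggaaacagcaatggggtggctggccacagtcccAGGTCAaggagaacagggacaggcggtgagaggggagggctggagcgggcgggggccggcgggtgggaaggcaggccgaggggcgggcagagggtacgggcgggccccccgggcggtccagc
Cyp11a1: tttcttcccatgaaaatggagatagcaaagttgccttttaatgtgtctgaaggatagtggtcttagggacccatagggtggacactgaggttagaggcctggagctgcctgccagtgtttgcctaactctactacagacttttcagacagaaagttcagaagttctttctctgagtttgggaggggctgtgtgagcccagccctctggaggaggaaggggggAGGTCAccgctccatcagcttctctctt
Each of these windows holds 1 match, at -122 in Lhcgr and at -28 in Cyp11a1. The window of the other Cyp11a1 start holds 0, and 14.0% of all windows hold the core. Nr5a1 and Nr5a2, quoted for this motif after their values were seen, did not pass, at 147 and 139 against 105 and 111 FPKM (adjusted p = 0.0529) and at 143 and 221 against 249 and 258 FPKM (adjusted p = 0.143).

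Luteinization and LH response genes, which share 5 members with the steroid list (among them Star and Cyp11a1), were lower in complexes in 10 of 14 members. Lhcgr, Sfrp4, Star and Cyp11a1 are also in the mural marker list, so this count is not separate from those of the earlier lists. Prlr, the prolactin receptor, stood at 1.83 and 1.86 FPKM in complexes and 37.5 and 65.4 FPKM in mural libraries (-4.15 ± 0.30 SE, adjusted p = 0.00291). Runx2, a transcription factor, stood at 0.282 and 0.144 against 4.50 and 10.9 FPKM (-2.74 ± 0.43 SE, adjusted p = 0.00985). The 12 genes that most exceeded their complex level in mural cells also held Cst8, a cystatin, at 1.60 and 1.63 against 69.5 and 176 FPKM (-5.42 ± 0.45 SE, adjusted p = 0.00294) and Tmsb4x, an actin-binding peptide, at 1.71 and 6.99 against 94.2 and 192 FPKM (-4.86 ± 0.61 SE, adjusted p = 0.00584). Saa3, an acute phase protein, was listed at 0 in both complexes and stood at 32.3 and 63.6 FPKM in mural libraries (adjusted p = 0.00265). Ecm1, a matrix glycoprotein, was listed at 0 in BDF1 and at 0.481 FPKM in DBA/2, against 30.1 and 63.3 FPKM. Hba-a1, a globin of red cells with a near-identical copy, was at 2.05 and 0 FPKM against 61.2 and 46.3 FPKM, and makes up most of the erythroid sum in mural replicate 2. Without single libraries, 7, 6, 7 and 2 [10, 10, 10 and 6] luteal genes passed.

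In the pathway that holds the oocyte in meiotic arrest, ligand and receptor lay on opposite sides. Nppc, the natriuretic peptide, stood at 19.1 and 21.4 FPKM in complexes and 150.3 and 147 FPKM in mural libraries (-2.82 ± 0.13 SE, adjusted p = 0.00180). Npr2, the guanylyl cyclase receptor it activates, stood at 231 and 196 against 106 and 84.2 FPKM (1.16 ± 0.17 SE, adjusted p = 0.00836). The groups did not overlap in either gene, and replicates lay close together in Nppc. Npr1, the related receptor of other natriuretic peptides, followed the ligand and not Npr2, at 0.620 and 0.422 against 16.6 and 28.04 FPKM (-3.90 ± 0.31 SE, adjusted p = 0.00291). In the oocyte Gpr3 keeps cyclic AMP high and Pde3a, held back by cyclic GMP, would break it down. Gpr3 stood at 9.88 and 21.4 against 0.518 and 0.390 FPKM (3.43 ± 0.39 SE, adjusted p = 0.00485), with DBA/2 above BDF1, and Pde3a at 10.97 and 12.01 against 0.628 and 0.189 FPKM (3.17 ± 0.26 SE, adjusted p = 0.00293). Of the 12 tested genes of this pathway 5 were higher, 2 were lower and 5 did not pass. The numbers higher without single libraries were 5, 4, 1 and 0 [4, 3, 3 and 3], and on the other scales 1 to 3, the lowest on the scale that leaves oocyte list genes out.

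Receptors and signalling of gonadotropins were mixed, with 2 higher and 4 lower of 13 tested members. Of all genes tested 27.5% were higher and 10.9% lower. Fshr, the FSH receptor, stood at 93.7 and 109 FPKM in complexes and 68.7 and 66.00 FPKM in mural libraries (0.58 ± 0.14 SE, adjusted p = 0.0291), a call that was lost on all 4 other scales, where the difference was 0.27 to 0.31. Prkar2b, a regulatory subunit of protein kinase A, stood at 118 and 163 against 937 and 1031 FPKM (-2.81 ± 0.19 SE, adjusted p = 0.00270). Rgs2, a regulator of G protein signalling, went the other way, at 401 and 555 against 73.9 and 59.01 FPKM (2.82 ± 0.21 SE, adjusted p = 0.00291). Rgs2 also stood above its mural level in the cumulus libraries, at 171, 176 and 180.3 FPKM. Crem, a cyclic AMP response factor, stood at 1.73 and 0.816 against 6.09 and 5.91 FPKM (-1.65 ± 0.29 SE, adjusted p = 0.0127).

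Granulosa identity genes were present in both groups. Of 15 tested members 7 were lower in complexes and 1 (Fshr) was higher, with a median of -0.51. Foxl2, the transcription factor that maintains granulosa fate, stood at 92.04 and 99.8 FPKM in complexes and 135 and 139.6 FPKM in mural libraries (-0.52 ± 0.12 SE, adjusted p = 0.0286). Gata4 stood at 56.1 and 42.6 against 142 and 155 FPKM (-1.58 ± 0.18 SE, adjusted p = 0.00451), and Gata6 at 13.6 and 16.1 against 53.4 and 51.00 FPKM (-1.75 ± 0.15 SE, adjusted p = 0.00302). Both GATA factors are activators of steroidogenic genes and differed by more than Foxl2. Inha, the inhibin alpha subunit, was among the most abundant transcripts, at 3875 and 5395 against 9833 and 8572 FPKM (-1.01 ± 0.21 SE, adjusted p = 0.0221), and did not pass after quantile normalization. Inhba, which forms activin A and inhibin A, stood at 468 and 398 against 1096 and 1376 FPKM (-1.51 ± 0.17 SE, adjusted p = 0.00491). Without single libraries 3, 5, 1 and 0 [4, 4, 4 and 3] members passed as lower.

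TGF-beta family receptors and SMADs, through which GDF9 and BMP15 act, had 5 members higher and 3 lower of 20 tested, with a median of -0.03. The shares over all genes tested were 27.5% higher and 10.9% lower. On the other scales the counts of this list were 2 to 3 higher and 3 to 7 lower, so its balance turned with the scale. Smad3, which carries GDF9 and activin signals, stood at 32.4 and 39.00 FPKM in complexes and 15.7 and 18.5 FPKM in mural libraries (1.02 ± 0.17 SE, adjusted p = 0.0122). Smad7, an inhibitory SMAD induced by the pathway, stood at 14.3 and 17.3 against 4.35 and 2.77 FPKM (1.90 ± 0.25 SE, adjusted p = 0.00635). Both were higher in each complex than in each mural library. Tgfbr2 went the other way, at 0.708 and 1.08 against 3.24 and 3.98 FPKM (-1.28 ± 0.27 SE, adjusted p = 0.0204). Without single libraries 5, 1, 0 and 0 [4, 1, 2 and 0] members passed as higher and 1, 2, 0 and 0 [1, 0, 0 and 0] as lower.

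Junctions and the KIT pathway join oocyte and granulosa cells. Gja4, the connexin 37 of the oocyte side, stood at 127 and 123 FPKM in complexes and 5.78 and 1.60 FPKM in mural libraries (4.91 ± 0.46 SE, adjusted p = 0.00353). Gja1, the connexin 43 between granulosa cells, stood at 1235 and 1525 against 2466 and 2209 FPKM (-0.77 ± 0.16 SE, adjusted p = 0.0227). Connexin 37 was low in both mural libraries, while connexin 43 was abundant in each library. Cdh1, the epithelial cadherin of the oocyte, was higher (8.54 and 10.6 against 0.875 and 0.584 FPKM, 2.61 ± 0.24 SE, adjusted p = 0.00341), and Cdh2, the cadherin of granulosa cells, was lower (22.8 and 16.9 against 53.4 and 48.8 FPKM, -1.33 ± 0.19 SE, adjusted p = 0.00766). Kit, the receptor on the oocyte, stood at 26.1 and 14.9 against 2.03 and 1.37 FPKM (2.96 ± 0.32 SE, adjusted p = 0.00441). Its ligand Kitl, made by granulosa cells, stood at 3.20 and 3.57 against 33.6 and 36.1 FPKM (-3.03 ± 0.16 SE, adjusted p = 0.00215). Ligand and receptor of this pair therefore lay on opposite sides too. Of 11 tested junction and adhesion genes 7 were higher and 3 lower, and 4, 6, 1 and 1 [4, 3, 3 and 2] passed as higher without single libraries. On the other scales 4 to 5 passed as higher.

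Cumulus markers were less uniform than mural ones: 5 of 9 were higher in complexes and 2 (Mro and Cdh2) lower. Mro stood at 16.9 and 18.9 FPKM in complexes, 135 and 139 in mural and 17.6, 19.2 and 15.6 FPKM in cumulus libraries, so its levels go against its place in the list. Tgfb2, the member with the smallest p among the higher ones, stood at 14.8 and 13.7 against 0.778 and 0.418 FPKM (3.26 ± 0.23 SE, adjusted p = 0.00281) and at 0.786, 0 and 4.83 FPKM in cumulus libraries, where it varied with the oocyte genes. Amh, the anti-Mullerian hormone of cumulus and preantral granulosa cells, stood at 437 and 44.6 FPKM in complexes and 144 and 37.3 FPKM in mural libraries (difference 0.92 ± 1.22 SE, adjusted p = 0.578). BDF1 complexes and mural replicate 1 were high, DBA/2 complexes and mural replicate 2 were low, and the groups overlapped. Without BDF1 the difference was -0.71, without DBA/2 2.55, without mural replicate 1 1.88 and without mural replicate 2 -0.042. None of these passed in the fit of 3 libraries, and the value without DBA/2 passed with the spread from the other 9 libraries (adjusted p = 0.0316). Slc38a3, an amino acid transporter of cumulus cells, showed the same order of libraries, at 69.6 and 30.6 against 43.8 and 19.3 FPKM (adjusted p = 0.380). The number of higher markers without single libraries was 3, 3, 1 and 0 [3, 4, 3 and 2], and 3 on each of the other scales.

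Genes of cumulus expansion and ovulation were mostly below the filter: 5 of 16 were tested. Has2, the hyaluronan synthase of expansion, stood at 0.198 and 0.403 FPKM in complexes and 0.0415 and 0.0468 FPKM in mural libraries. Ptgs2, which makes prostaglandins at ovulation, stood at 0.405 and 1.24 FPKM in complexes, at 0.1275 FPKM in mural replicate 1 and was listed at 0 in replicate 2. Of the tested genes Egfr, the receptor of the ovulatory EGF-like signal, was higher, at 22.5 and 28.9 against 8.45 and 9.34 FPKM (1.42 ± 0.19 SE, adjusted p = 0.00660). Adamts1 and Vcan, a protease and its matrix substrate, were lower, at 6.48 and 7.31 against 20.00 and 20.99 FPKM and 30.1 and 38.98 against 116 and 123 FPKM (adjusted p = 0.00459 and 0.00357). Areg, a ligand of EGFR, stood at 0.802 and 0 FPKM against 3.54 and 3.80 FPKM. Immediate early genes had 2 lower and 0 higher of 21 tested (2 and 1 at an unadjusted p under 0.05), and 0 passed in either direction in the fit over all 10 libraries. The 2 complexes differed among themselves (Fosb at 56.1 and 2.96 FPKM).

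Glycolysis genes were higher in complexes in 15 of 20 tested members and lower in 2, with a median of 1.04. Ldha, which turns pyruvate into lactate, stood at 1057 and 973 FPKM in complexes and 304 and 322 FPKM in mural libraries (1.69 ± 0.12 SE, adjusted p = 0.00291). Pfkp, a phosphofructokinase, stood at 39.3 and 44.4 against 11.96 and 13.1 FPKM (1.66 ± 0.15 SE, adjusted p = 0.00327). Eno1, an enolase, stood at 539.5 and 584 against 216 and 204 FPKM (1.42 ± 0.12 SE, adjusted p = 0.00302). Within each of these genes the replicates differed little, and the cumulus libraries lay with the complexes (Ldha 1399.5, 1261 and 1078, Pfkp 66.98, 61.3 and 56.4 FPKM). Ldhb, the lactate dehydrogenase subunit of oocytes, stood at 820.1 and 664 against 157 and 124 FPKM (2.40 ± 0.18 SE, adjusted p = 0.00291). In cumulus libraries Ldhb was nearer to mural cells, at 194, 146 and 367 FPKM, and highest in replicate 3, which holds most oocyte signal. The 2 lower members, named after their values were seen, were Hk1, a hexokinase, and Pfkm, the muscle phosphofructokinase, with differences of -1.12 and -0.97. Without single libraries 12, 13, 1 and 0 [10, 13, 9 and 11] members passed as higher.

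Amino acid transporters had 4 members higher and 1 lower of 15 tested, a share near the 27.5% of all genes that were higher. On the other scales 4 were higher and 2 to 3 lower. Slc7a5, a carrier of large neutral amino acids, stood at 103 and 87.8 FPKM in complexes and 39.9 and 41.5 FPKM in mural libraries (1.21 ± 0.14 SE, adjusted p = 0.00505). Slc6a9, the glycine transporter known from oocytes and cumulus cells, stood at 56.2 and 47.5 against 21.5 and 18.97 FPKM (1.31 ± 0.16 SE, adjusted p = 0.00537). Slc7a11, the cystine importer, stood at 13.4 and 11.4 against 3.83 and 4.25 FPKM (1.41 ± 0.19 SE, adjusted p = 0.00680). Each of these carriers was higher in both complexes than in both mural libraries, as groups were apart in 74.3% of all genes. Serine, one-carbon and nucleotide synthesis genes were higher in 7 of 15 members and lower in 0 (0 at an unadjusted p under 0.05), for example Shmt2, which feeds one-carbon units from serine, at 73.4 and 60.6 against 30.7 and 29.4 FPKM (1.12 ± 0.15 SE, adjusted p = 0.00696). Tyms, the thymidylate synthase, stood at 37.7 and 28.9 against 13.7 and 13.5 FPKM (1.22 ± 0.18 SE, adjusted p = 0.00855). Counts without single libraries were 4, 4, 0 and 0 [3, 4, 4 and 3] for transporters and 5, 8, 0 and 0 [4, 7, 5 and 4] for one-carbon genes.

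**Figure D3:**
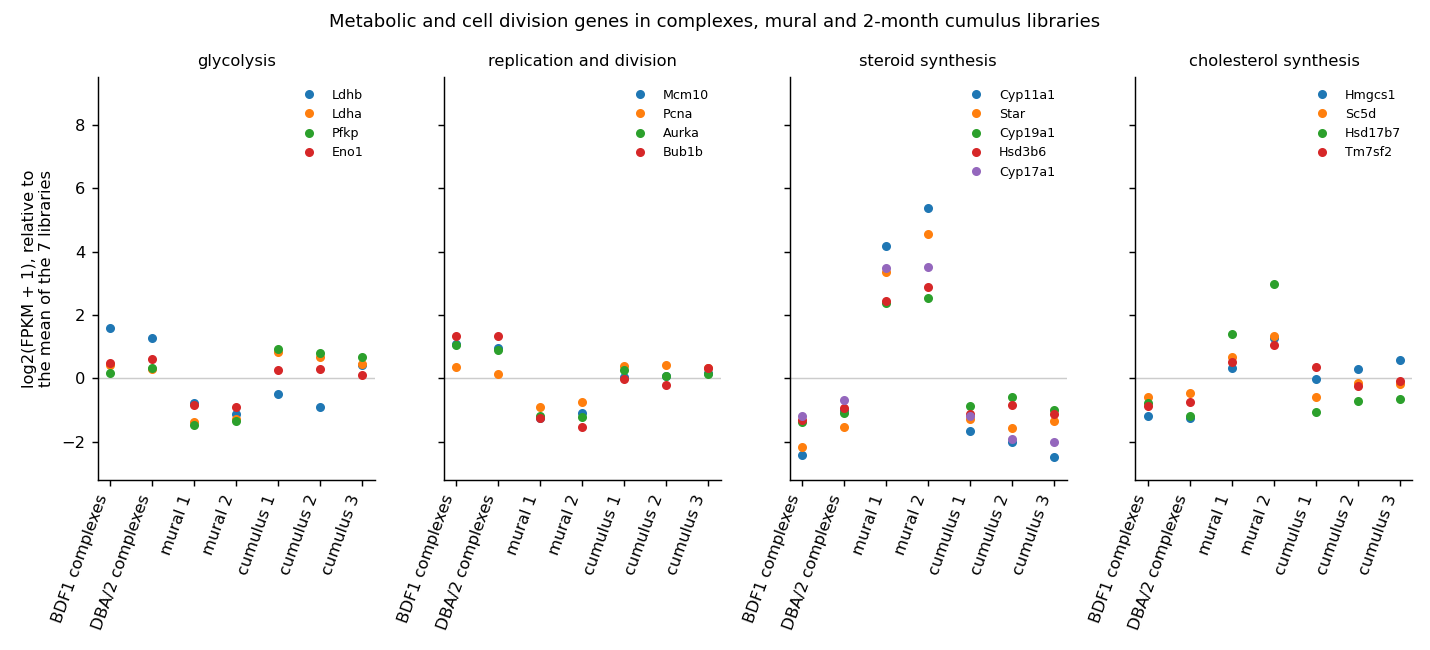
log2(FPKM + 1) of 17 genes relative to each gene's mean over the 2 complex, 2 mural and 3 cumulus libraries, 1 point per gene and library. Glycolysis and cell division genes lie below 0 in both mural libraries and steroid synthesis genes above it, with complexes and cumulus libraries mostly on the other side. Cumulus libraries stand above complexes in most of the cholesterol synthesis points.

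Cell division genes were also higher in complexes. Mitosis and spindle genes had 23 of 24 members higher and 0 lower (0 at an unadjusted p under 0.05), with a median of 1.29, and DNA replication genes 14 of 23 higher and 0 lower (0 unadjusted), with a median of 0.89. Bub1b, a spindle checkpoint kinase, stood at 158 and 159 FPKM in complexes and 25.9 and 20.9 FPKM in mural libraries (2.72 ± 0.15 SE, adjusted p = 0.00225). Aurka, a mitotic kinase that also acts in oocyte meiosis, stood at 91.5 and 81.4 against 18.6 and 18.1 FPKM (2.17 ± 0.14 SE, adjusted p = 0.00265). Cumulus levels lay between the groups for both genes, at 61.8, 54.3 and 79.5 FPKM for Bub1b and 52.3, 46.5 and 48.3 FPKM for Aurka. Pcna, the sliding clamp of replication, stood at 268 and 231 against 112 and 123 FPKM (1.08 ± 0.14 SE, adjusted p = 0.00612), with cumulus libraries at 275, 279 and 260.3 FPKM. Mcm10, an initiation factor, stood at 37.9 and 34.9 against 6.82 and 7.75 FPKM (2.17 ± 0.16 SE, adjusted p = 0.00291). E2f1, which activates S phase genes, stood at 54.9 and 57.1 against 15.5 and 12.8 FPKM (1.92 ± 0.16 SE, adjusted p = 0.00293). Of 13 tested genes of D and E cyclins, their kinases, inhibitors and E2F1, 2 were higher and 0 lower (0 lower at an unadjusted p under 0.05). Of all genes tested 27.5% were higher and 10.9% lower. The median of this list was 0.25 beside 0.22 for all genes, so the list as a whole did not stand above them. Counts without single libraries were 19, 21, 7 and 0 [16, 22, 20 and 16] for mitosis and 9, 16, 2 and 0 [8, 16, 11 and 8] for replication. The median of replication genes was 0.96 without mural replicate 2, where none passed in the fit of 3 libraries.

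Genes of DNA methylation were higher in 6 of 10 members and lower in 0 (0 at an unadjusted p under 0.05), and 2 of the 6 (Zfp57 and Dppa3) are maternal effect genes as well. Dnmt1, the maintenance methyltransferase with an oocyte form, stood at 260.4 and 191 FPKM in complexes and 30.96 and 25.8 FPKM in mural libraries (2.94 ± 0.20 SE, adjusted p = 0.00280). Uhrf1, which brings DNMT1 to replicated DNA, stood at 102 and 98.6 against 25.2 and 20.6 FPKM (2.09 ± 0.15 SE, adjusted p = 0.00291). Uhrf1 was at 70.02, 59.2 and 68.7 FPKM in all 3 cumulus libraries, whereas Dnmt1, at 62.7, 51.7 and 105 FPKM, was highest in replicate 3. Dnmt3l, the cofactor that sets oocyte methylation, stood at 25.6 and 22.3 FPKM in complexes, at 2.29 FPKM in mural replicate 1 and was listed at 0 in replicate 2 (adjusted p = 0.00938). Without single libraries 3, 3, 5 and 2 [2, 2, 5 and 2] members passed.

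Cholesterol synthesis genes were lower in complexes in 9 of 22 members and higher in 0 (1 at an unadjusted p under 0.05), with a median of -0.73. On the other scales 15 to 17 passed as lower. Hmgcs1, at the entry of the pathway, stood at 13.5 and 12.7 FPKM in complexes and 39.96 and 78.4 FPKM in mural libraries (-2.02 ± 0.33 SE, adjusted p = 0.0112). Sc5d, a desaturase near its end, stood at 28.5 and 31.1 against 69.6 and 112 FPKM (-1.54 ± 0.25 SE, adjusted p = 0.0108). Mural replicate 2 was above replicate 1 in both genes, and the complexes were level. Hsd17b7, which acts in cholesterol and in estradiol synthesis, stood at 8.95 and 6.52 against 44.3 and 132 FPKM (-3.17 ± 0.53 SE, adjusted p = 0.0115). Of 11 tested genes of lipoprotein and lipid handling 2 were higher and 2 lower, with 1 higher on each of the other scales. Of all genes tested 27.5% were higher and 10.9% lower. The median of this list was 0.14 beside 0.22 for all genes, so the genes named next do not stand for the list. Soat1, which esterifies cholesterol, was lower (52.6 and 76.2 against 127 and 169 FPKM, -1.20 ± 0.24 SE, adjusted p = 0.0192), as was Apoe (7.63 and 17.9 against 55.04 and 61.4 FPKM, -2.21 ± 0.39 SE, adjusted p = 0.0131). Cd36, a fatty acid carrier, was higher (35.8 and 45.9 against 14.4 and 7.47 FPKM, 1.86 ± 0.33 SE, adjusted p = 0.0131). The cholesterol genes past the threshold numbered 2, 2, 3 and 0 [7, 7, 16 and 6] without single libraries.

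**Figure D4:**
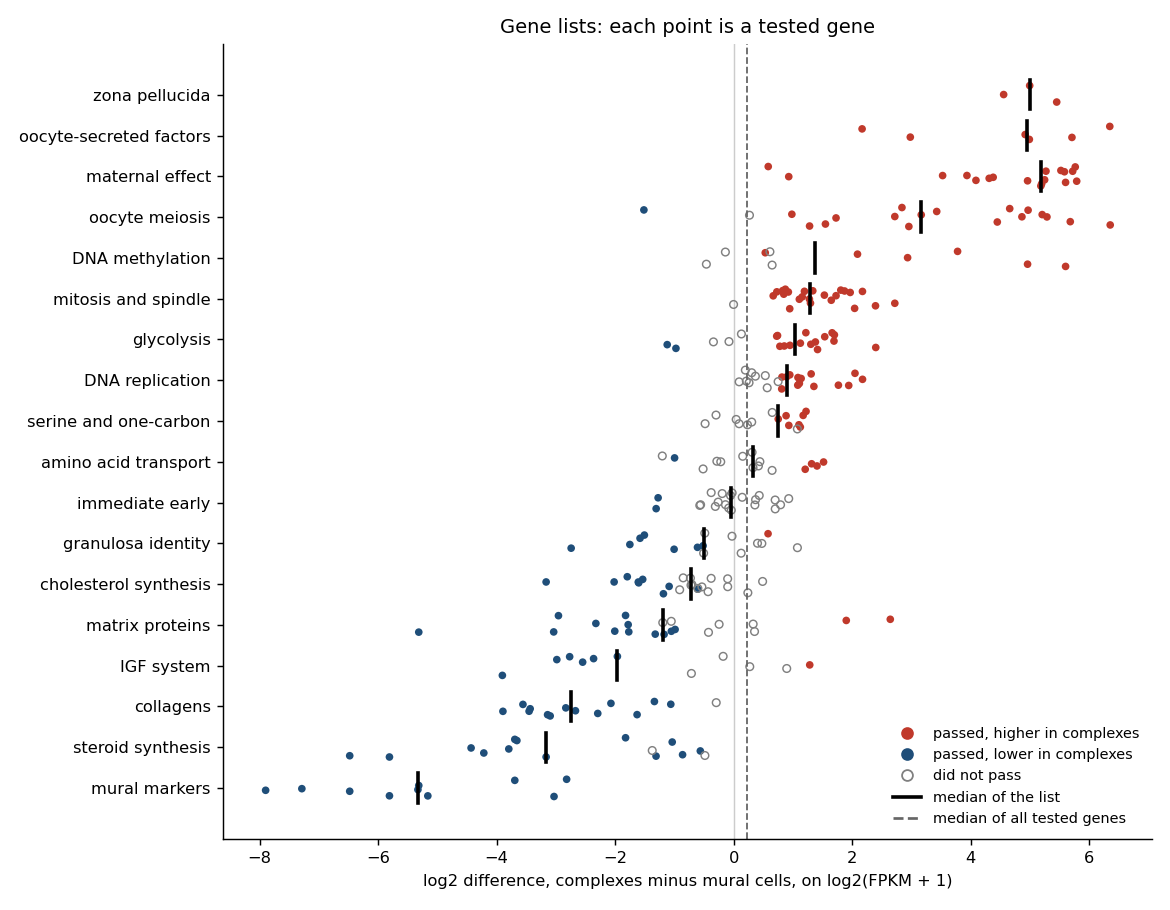
Differences of tested genes of 18 lists, complexes minus mural cells on log2(FPKM + 1), 1 point per gene. Filled points passed (adjusted p under 0.05), open points did not, the black bar is the list median and the dashed line the median of all genes at 0.22. Medians run from 5.19 for maternal effect genes to -5.32 for mural markers, with cell division and glycolysis lists right of the dashed line and collagens and steroid synthesis left of it.

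Extracellular matrix genes were mostly lower in complexes. Of 14 tested collagens 13 were lower and 0 higher (0 at an unadjusted p under 0.05), with a median of -2.75, and of 20 other matrix proteins 12 were lower and 2 higher. Col6a1, a microfibril collagen, stood at 6.98 and 4.53 FPKM in complexes and 47.1 and 66.2 FPKM in mural libraries (-3.10 ± 0.27 SE, adjusted p = 0.00304), with 22.1, 12.9 and 11.5 FPKM in cumulus libraries. Col4a1, a basement membrane collagen, stood at 1.74 and 2.92 against 21.6 and 56.1 FPKM (-3.45 ± 0.49 SE, adjusted p = 0.00748). Mural replicate 2 held more of both, as it did of theca and endothelial markers, and the stromal collagens Col1a1 and Col3a1 were listed at 0 in both complexes. Spock2, a proteoglycan, was even within groups, at 8.02 and 7.11 against 41.02 and 42.8 FPKM (-2.33 ± 0.15 SE, adjusted p = 0.00265). Lamb1, a laminin chain, was higher in complexes, at 80.8 and 81.2 against 10.1 and 14.6 FPKM (2.64 ± 0.20 SE, adjusted p = 0.00291). The numbers lower without single libraries were 6, 7, 6 and 0 [9, 13, 12 and 10] for collagens and 5, 6, 4 and 0 [9, 11, 13 and 9] for other matrix proteins. The part of theca, stroma and endothelial cells in these levels was not tested.

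Proteases and their inhibitors had 9 members lower and 1 (Plat) higher of 17 tested. Plau, the urokinase activator of plasminogen, stood at 12.3 and 14.1 FPKM in complexes and 54.4 and 62.2 FPKM in mural libraries (-2.06 ± 0.16 SE, adjusted p = 0.00291), opposite to Plat. Timp3, an inhibitor of metalloproteases, stood at 0.713 and 0.182 against 16.6 and 26.6 FPKM (-3.95 ± 0.33 SE, adjusted p = 0.00294), and Mmp14, a membrane-bound metalloprotease, at 7.01 and 4.78 against 47.3 and 54.5 FPKM (-2.93 ± 0.22 SE, adjusted p = 0.00291). Protease and inhibitor were therefore both lower in complexes. In the IGF system 6 of 11 tested members were lower and 1 higher, and the higher one, named after its value was seen, was the ligand Igf1, at 40.03 and 54.7 against 22.96 and 15.1 FPKM (1.28 ± 0.27 SE, adjusted p = 0.0202). Pappa, the protease that frees IGF from binding proteins, stood at 0.135 and 0.192 against 14.3 and 18.8 FPKM (-3.90 ± 0.24 SE, adjusted p = 0.00265). Igfbp4, its substrate, stood at 3.002 and 2.19 against 15.6 and 25.4 FPKM (-2.55 ± 0.29 SE, adjusted p = 0.00489), and Igfbp5 at 8.62 and 4.61 against 32.8 and 41.4 FPKM (-2.36 ± 0.31 SE, adjusted p = 0.00627). Counts of lower members without single libraries were 9, 7, 3 and 0 [6, 5, 6 and 5] for proteases and 5, 5, 4 and 0 [5, 6, 6 and 5] for the IGF system.

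Levels in 2-month cumulus libraries were set beside the difference to show which genes are present in cells labelled cumulus. Cumulus replicate 2 is the library in which the median oocyte gene is listed at 0. Of the 3552 genes higher in complexes, 21.2% were under 1 FPKM in that library, against 18.3% of those lower in complexes, 9.22% of those that did not pass and 13.5% of all genes tested. Ranges of complexes and 2-month cumulus libraries overlapped in 21.7% of genes higher in complexes, 46.0% of those lower and 45.7% of all genes tested. A set of 528 genes was higher in complexes, with both complexes above both mural libraries. Its genes also held at least 10 FPKM in every cumulus library and had overlapping ranges in complexes and cumulus libraries. In complexes they were at most 1.5 times the level of cumulus replicate 2. Examples near the top of this set were chosen after the values were seen. Tgoln2, a protein of the trans-Golgi network, stood at 20.1 and 15.7 FPKM in complexes, 0.547 and 1.004 in mural and 17.3, 19.6 and 12.8 FPKM in cumulus libraries. Plekhh1 stood at 36.4 and 43.4 FPKM in complexes, 6.80 and 4.67 in mural and 36.5, 35.3 and 25.02 FPKM in cumulus libraries. Cox4i2, a subunit form of cytochrome oxidase, stood at 122 and 91.9, 16.98 and 22.8 and 168, 126 and 120.3 FPKM in the same order. The rule of the set places both complexes above both mural libraries, and in these 3 genes every cumulus library lay above them too. For Tgoln2 and Plekhh1, which were under 10 FPKM in mural libraries, the limit of 10 FPKM fixes that as well.

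In the reverse direction, 285 genes with at least 10 FPKM in every cumulus library were lower in complexes than in mural cells and also below each cumulus library. Examples were again chosen after the values were seen. Aldh1a1, which makes retinoic acid and is also in the theca and stroma list, stood at 12.2 and 10.9 FPKM in complexes, 195 and 254 in mural and 20.8, 23.96 and 24.1 FPKM in cumulus libraries. Lgals1, a galectin, stood at 8.04 and 6.83, 86.3 and 143 and 28.5, 22.9 and 21.6 FPKM, and Neat1, a nuclear noncoding RNA, at 11.01 and 6.03, 89.6 and 119 and 17.4, 11.98 and 16.7 FPKM. Tle2, a transcriptional corepressor, stood at 4.95 and 5.82, 63.4 and 70.02 and 19.4, 11.6 and 11.5 FPKM. In these 4 genes the mural libraries stood highest. Both sets share the mural libraries with the difference itself and carry no test. No share over all genes was worked out for either set.

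The 2 complexes differ in strain and form 1 group here, so how far they lie apart bears on each value above. Across 12916 genes their Spearman correlation was 0.946, against 0.950 for the mural pair and 0.730 to 0.788 across groups. These are correlations over genes, which are not independent replicates. Most oocyte genes were close in both strains (Gdf9 951 and 894, Bmp15 163 and 167 FPKM). The naming rule took Rpl26, Rnaset2b, AI463170, Apoo and Eif3j as higher in DBA/2, and Fam25c, Akr1b3, Art4, Fosb and Rpph1 as higher in BDF1. Eif3j, a translation initiation factor, stood at 1.60 FPKM in BDF1 and 25.1 FPKM in DBA/2, and Fosb, an immediate early gene, at 56.1 and 2.96 FPKM. Several of the others were at or near 0 in 1 strain (Fam25c at 24.4 and 0 FPKM, Art4 at 16.5 and 0 FPKM), as Apoo was in BDF1 while its copy Apoo-ps stood at 43.3 FPKM in BDF1 and 6.81 FPKM in DBA/2. Reads of such near-identical copies can be assigned to either, so these values are uncertain. Klf1, an erythroid transcription factor chosen after its values were seen, was higher in both complexes than in both mural libraries and also differed between strains. It stood at 6.60 and 36.1 FPKM against 0.252 and 0.142 FPKM (3.81 ± 0.76 SE, adjusted p = 0.0184). With 1 library per strain the differences between strains have no test.

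**Figure D5:**
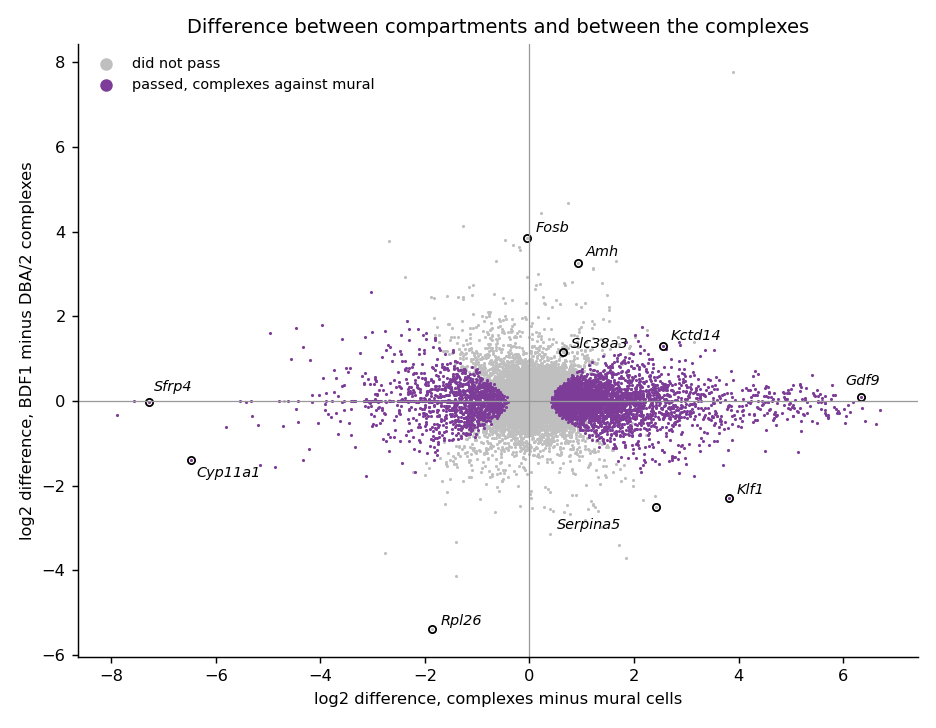
Each point is a tested gene other than Mir and Snor genes, with the difference of complexes from mural cells on the horizontal axis and of BDF1 from DBA/2 complexes on the vertical axis, both on log2(FPKM + 1). Gdf9 and Sfrp4 lie far out horizontally and near 0 vertically. Cyp11a1 also lies far out horizontally, but at -1.40 vertically. Amh (3.26 vertically) and Fosb (3.85) differ between the complexes and did not pass.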

How the data were processed

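The deposited table gives FPKM per gene symbol for 10 libraries. The authors' tools were TopHat2 2.1.0 and Cufflinks 2.1.0 on mm9, per the submitters' processing notes. Neither the labels nor these notes state the gene annotation, the strandedness, the read length or the depth. Cufflinks estimates levels by likelihood, so whole reads were not recovered and no counting interval is given. The table holds 23234 symbols after 1 repeated header line was dropped, and 23020 of them are in RefSeq's table.

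Genes with a mean of at least 1 FPKM over the 4 libraries were tested on log2(FPKM + 1) with limma 3.58.1 (intensity trend, robust off, 2 residual degrees of freedom) in R 4.3.3, two-sided, with Benjamini-Hochberg adjustment over all 12916 genes. Summaries used Python 3.11.15, pandas 2.3.3, numpy 2.4.6 and matplotlib 3.10.9. On simulated data with the same 12916 genes, 18 of 100 genes changed by 2 on the log2 scale and 0 of 100 changed by 1 were recovered, and 1 of 12716 unchanged genes was called. In that simulation, where few genes were changed, the test missed most changes of this size. In the data 38.4% of genes passed, and Benjamini-Hochberg adjustment depends on that share. The simulated recovery therefore does not give the recovery in the data.

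The comparison and the gene lists were chosen with earlier results of these data known. Of 559 listed symbols 557 were in the table, 489 were tested and 68 fell below the filter. Named genes were the 12 largest differences per direction among genes that passed, with at least 5 FPKM in the higher group and no overlap, leaving out predicted, Mir and Snor genes. To these came up to 4 members of each list by p, a fixed set of marker genes, and 5 genes per strain direction with at least 10 FPKM in the higher library. Alternatives were pseudocounts of 0.1 and 5, no filter or a mean of 5 FPKM, 4 scalings, no trend, a fit over all 10 libraries, and leaving out each library.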

Additional observations from a re-analysis of the deposited data

Results flagged for a closer look

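Among all genes tested, 1187 (9.19%) were above both mural libraries in complexes of 1 strain and below both in the other. The 6 given here are those among the genes the naming rule took, which asked for the largest differences between strains. The differences are BDF1 minus DBA/2 on log2(FPKM + 1). With 1 library per strain the difference between strains was not tested. Rpl26, a ribosomal protein gene with many near-identical copies, had a difference of -5.38, at 0.00608 and 40.96 FPKM in BDF1 and DBA/2 and 26.3 and 19.2 FPKM in mural libraries. Rnaset2b, one of a pair of near-identical ribonuclease genes, had -4.13, at 0.00244 and 16.6 against 12.6 and 8.08 FPKM. Both levels are uncertain because reads can be assigned to a copy. Fam25c had 4.67, at 24.4 and 0 against 1.03 and 3.47 FPKM, and Art4, an ADP-ribosyltransferase family gene, had 4.13, at 16.5 and 0 against 10.2 and 8.15 FPKM. Fosb, an immediate early transcription factor, had 3.85, at 56.1 and 2.96 against 41.7 and 4.60 FPKM, so the mural libraries were apart from each other as well. Rpph1, the RNA of RNase P, had 3.81, at 13.01 and 0 against 2.73 and 6.16 FPKM.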

How the results depend on the processing

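Of 158 named genes past the threshold, 147 to 158 remained past it under both other pseudocounts, without the filter, on 3 of the 4 other scales and in the fit over all 10 libraries. Without single libraries 127, 124, 82 and 23 remained. The number of genes past the threshold ran from 130 to 3655 without single libraries, from 70 to 2622 for genes higher in complexes and from 60 to 1048 for genes lower. With the spread taken from the other 9 libraries, these ranges were 2556 to 3716, 1825 to 2603 and 731 to 1201. Centring on the median gave 2349 higher and 2362 lower genes. Lower genes numbered 2301 after quantile normalization and 2483 without Mir, Snor and oocyte list genes. Higher genes numbered 2346 without mural replicate 1 where the spread came from the other 9 libraries. Relative to all genes, the list median of immediate early genes ran from -0.55 to 0.080 without single libraries, turning without DBA/2 (replicate 2). At a mean of 5 FPKM, where fewer genes are tested, that of the KIT and EGF list turned to 0.86 and that of surface epithelium to 1.00. The difference of Amh ran from -0.71 without BDF1 (replicate 1), with -0.042 without mural replicate 2, to 2.55, and that of Hba-a2 from -4.26 to 0.077, the latter without mural replicate 1. These values are the same in both fits, but that of Amh without DBA/2 passed only with the 9 libraries. The cause was not tested. No paired analysis was possible because the complexes and the mural cells came from mice of different strain and age. Depth is unknown, so low levels and values listed at 0 have an unknown error.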

Other observations

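Signalling lists outside the roles above were mostly mixed, beside 27.5% higher and 10.9% lower of all genes tested. Of 8 tested Notch pathway genes 3 were higher in complexes and 1 lower. Jag2, a Notch ligand, stood at 15.97 and 15.9 FPKM in complexes and 2.001 and 2.16 FPKM in mural libraries (2.46 ± 0.18 SE, adjusted p = 0.00291), and Heyl, a target of the pathway, at 42.1 and 38.4 against 8.36 and 7.86 FPKM (2.18 ± 0.15 SE, adjusted p = 0.00273). The receptor Notch1 was lower, at 0.516 and 0.263 against 1.80 and 2.14 FPKM (-1.10 ± 0.29 SE, adjusted p = 0.0392). Heyl stood above mural cells in all 3 cumulus libraries (35.01, 24.1 and 17.99 FPKM). Of 14 Wnt and Hippo genes 2 were higher and 3 lower. Axin2, a target of Wnt signalling, stood at 24.2 and 31.7 against 1.69 and 1.35 FPKM (3.51 ± 0.22 SE, adjusted p = 0.00265), and the Wnt receptor Fzd4 at 1.83 and 1.17 against 7.17 and 9.99 FPKM (-1.93 ± 0.27 SE, adjusted p = 0.00751). Axin2 was low in cumulus libraries, at 2.43, 1.79 and 8.64 FPKM, and highest in the one with most oocyte signal.

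Retinoic acid genes had 3 members higher and 3 lower of 10 tested, beside 27.5% higher and 10.9% lower of all genes. Crabp2, which carries retinoic acid to its receptors, stood at 82.6 and 84.2 FPKM in complexes, 40.7 and 35.8 in mural and 192, 146 and 135 FPKM in cumulus libraries (1.11 ± 0.13 SE, adjusted p = 0.00537). Aldh1a1, the synthesizing enzyme, was on the other side. Of 16 tested p53 and stress genes 6 were higher and 0 lower (0 at an unadjusted p under 0.05), with a median of 0.42 beside 0.22 for all genes, and 3 were higher on each of the other scales. Among them Gadd45g, a growth arrest gene, stood at 52.9 and 124 against 15.5 and 10.4 FPKM (2.58 ± 0.44 SE, adjusted p = 0.0123), with DBA/2 above BDF1. Mdm2, the ligase of p53, stood at 26.5 and 28.3 against 16.4 and 16.9 FPKM (adjusted p = 0.0197) and did not pass on any of the 4 other scales. Antioxidant genes had 4 members lower and 1 higher of 21 tested (1 lower without the filter and 2 without the intensity trend), for example Gsta4, a glutathione transferase, at 60.4 and 82.1 against 207 and 233 FPKM (-1.63 ± 0.19 SE, adjusted p = 0.00500), and Gclm, of glutathione synthesis, at 42.3 and 59.2 against 20.6 and 22.4 FPKM (1.18 ± 0.20 SE, adjusted p = 0.0123).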
